A study of Arabidopsis thaliana with 12 samples.

Results

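Ribosomal protein genes that are transcribed at a high level in Arabidopsis thaliana rosettes were compared across 4 genotypes. Of the 33323 genes in the deposited table, 364 carried the words ribosomal protein, and not kinase, in their function text, and 169 of these had a mean of 100 TPM or more over the 12 libraries (TPM is a level per transcript length, with the same sum in every library). The other 195 lay below that level, 54 of them under 1 TPM. The members were chosen by their mean TPM over all libraries, so the high level itself is a description; the differences between genotypes were not used in the choice. Just inside the threshold were AT5G09510 at 102 TPM, AT5G23900 at 109 TPM and AT3G46040 at 111 TPM. Just outside it were AT3G47370 at 99.3 TPM, AT2G27720 at 99.0 TPM and AT2G44120 at 96.8 TPM.

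The 3 mutant genotypes were cdk8-1, jazD and jazDcdk8-1, and the wild type was Col-0, with 3 libraries each. JAZ proteins are repressors of jasmonate-responsive transcription, jazD is a multiple mutant of JAZ genes, CDK8 is the cyclin-dependent kinase attached to Mediator, and jazDcdk8-1 combines both. The labels do not list the individual alleles. Each library came from a pool of about 20 whole rosettes, without roots, of plants kept for 18 days on peat pellets and 7 days in soil under 16 h of light at 20 °C, all genotypes in 1 tray. The libraries therefore describe pools of plants, and in such bulk tissue fewer cells of a type and less RNA per cell cannot be told apart. The libraries held 17583467 to 21030374 counts, and all 169 members passed the filter on low counts, among 19059 genes tested. Root marker genes summed to at most 0.92 TPM and flower marker genes to at most 2.25 TPM in any library. Leaf photosynthesis markers summed to means of 60063 to 75721 TPM in the 4 genotypes.

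A plant cell makes ribosomes in the cytosol, from nuclear-encoded proteins of a large (60S) and a small (40S) subunit, and in plastids, where nuclear-encoded bacterial-type proteins of the 50S and 30S subunits are imported and join others made in the plastid itself. Most cytosolic ribosomal proteins are encoded by several paralogous genes. Many of their promoters hold telo-boxes and site II elements, and their transcription and translation are known to follow growth and TOR kinase signalling. Sorted by hand from their annotation, 132 members were cytosolic, in 68 protein families: 68 genes of the large subunit, 58 of the small subunit and 6 of the acidic stalk, the flexible arm of the large subunit that binds translation factors. Another 34 were plastid, 21 of the large and 13 of the small subunit. The last 3 were translation elongation factors (eEF2 and a pair of eEF1B beta genes) whose text mentions ribosomal proteins, and they are no ribosomal subunits. Of the 102 families, 54 had more than 1 member.

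The upstream sequences of 6 members whose values are given further on are shown because they differ in site II elements, which many ribosomal protein promoters are known to hold. Each is the 200 bases before the annotated gene start (RefSeq, TAIR10.1), in the direction of transcription, with site II elements (TGGGCC or TGGGCT, either strand, overlapping matches included) in capitals.
AT4G31700 (RPS6A, cytosolic, chr4:15347805-15348004, minus strand): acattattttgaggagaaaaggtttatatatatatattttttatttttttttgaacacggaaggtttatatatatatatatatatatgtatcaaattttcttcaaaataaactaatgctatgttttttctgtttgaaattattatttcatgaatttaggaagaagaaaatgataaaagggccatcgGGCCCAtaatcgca
AT5G10360 (RPS6B, cytosolic, chr5:3260255-3260454, minus strand): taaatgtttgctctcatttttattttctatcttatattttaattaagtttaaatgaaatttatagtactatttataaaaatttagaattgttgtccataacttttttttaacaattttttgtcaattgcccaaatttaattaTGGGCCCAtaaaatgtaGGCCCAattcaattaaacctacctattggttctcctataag
AT5G56710 (L31 family, cytosolic, chr5:22944994-22945193, minus strand): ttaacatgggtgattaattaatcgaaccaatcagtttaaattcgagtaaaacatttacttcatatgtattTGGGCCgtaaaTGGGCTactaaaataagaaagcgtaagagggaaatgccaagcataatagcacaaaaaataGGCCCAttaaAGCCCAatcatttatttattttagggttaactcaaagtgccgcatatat
AT1G56045 (L41 family, cytosolic, chr1:20962370-20962569, plus strand): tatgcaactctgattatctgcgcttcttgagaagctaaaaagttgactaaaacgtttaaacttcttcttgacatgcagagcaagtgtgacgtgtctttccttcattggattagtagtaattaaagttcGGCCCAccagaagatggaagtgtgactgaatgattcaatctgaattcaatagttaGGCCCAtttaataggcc
AT5G47930 (S27 family, cytosolic, chr5:19407450-19407649, minus strand): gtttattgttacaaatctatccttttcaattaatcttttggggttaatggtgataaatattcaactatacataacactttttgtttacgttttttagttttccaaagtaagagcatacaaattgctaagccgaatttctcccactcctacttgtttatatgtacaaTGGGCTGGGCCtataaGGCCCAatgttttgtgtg
AT5G24490 (30S protein, plastid, chr5:8365401-8365600, plus strand): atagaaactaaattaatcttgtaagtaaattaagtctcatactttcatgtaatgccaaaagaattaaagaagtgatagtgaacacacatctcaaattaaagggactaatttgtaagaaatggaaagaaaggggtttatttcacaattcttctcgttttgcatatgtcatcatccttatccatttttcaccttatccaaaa
RPS6B, AT5G56710 and AT5G47930 carry several site II matches within 200 bases, RPS6A carries 1 close to the gene start, and the plastid gene AT5G24490 carries none. The telo-box (AAACCCTA, either strand) often lay just after the annotated start. Short stretches around it are shown for 3 cytosolic members, with the telo-box in capitals.
AT5G10360 (RPS6B, chr5:3260214-3260241, minus strand): ctttctcgcaAAACCCTAaaagctgagc
AT3G25520 (RPL5A, chr3:9271416-9271441, minus strand): aggagttttcTAGGGTTTtgtcttat
AT1G56045 (L41 family, chr1:20962575-20962602, plus strand): atatagtgggAAACCCTAgctataaatt
Over the window from 250 bases before to 50 bases after the gene start, 69 of 132 cytosolic members held a telo-box (52.3%) and 110 held a site II element (83.3%). Of 34 plastid members 5 held a telo-box (14.7%) and 17 a site II element. Among all 27443 RefSeq protein-coding promoters of the same length the shares were 6.22% and 21.7%. A telo-box lay before the start in 30 cytosolic members and after it in 43. These are matches of letters, not measured binding.

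The plastid members stood at the top of the range of levels. Mean TPM ran from 195 to 1032 (median 578) in plastid members, against 102 to 744 (median 249) in cytosolic ones. Among the highest, all plastid, were AT4G34620 (SSR16, a small-subunit protein S16) at 1032 TPM, AT2G24090 (PRPL35) at 877 TPM, AT3G27830 (RPL12-A, of the plastid stalk) at 861 TPM and AT3G56910 (PSRP5, a plastid-specific 50S protein) at 803 TPM. SSR16 had 1009, 1066 and 1214 TPM in cdk8-1, 994, 972 and 946 TPM in jazD, 999, 1015 and 979.5 TPM in jazDcdk8-1, and 1111, 979 and 1099 TPM in Col-0. Each mutant overlapped Col-0 on this scale; under TMM its fall in jazDcdk8-1 relative to Col-0 was called (-0.19 ± 0.06).

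Together the members made up 6.38% of all transcripts in cdk8-1, 5.41% in jazD, 5.72% in jazDcdk8-1 and 5.93% in Col-0. Their summed level was 62827, 65747 and 62931 TPM in the cdk8-1 libraries, 54274, 53854 and 54177 TPM in jazD, 57569, 56969 and 57098 TPM in jazDcdk8-1, and 58144, 60289 and 59340 TPM in Col-0. The cdk8-1 libraries lay above and the other mutants below every Col-0 library. The cytosolic members summed to 41544 ± 1274 TPM in cdk8-1, 35528 ± 55.5 TPM in jazD, 36439 ± 332 TPM in jazDcdk8-1 and 37942 ± 751 TPM in Col-0 (SD, n = 3). The plastid members summed to 21296 ± 434 TPM in cdk8-1, 17704 ± 282 TPM in jazD, 19842 ± 115 TPM in jazDcdk8-1 and 20408 ± 331 TPM in Col-0 (SD, n = 3). On the scale of library-size scaled counts after TMM scaling (CPM), the log2 difference of the summed level was 0.02 for cdk8-1 against Col-0, where the TPM sums gave 0.11. For jazDcdk8-1 against jazD it was -0.07 in CPM and 0.08 in TPM, so the direction of that sum turned with the scaling. The summed level of 15 markers of dividing tissue was also highest in cdk8-1 and lowest in jazD, but higher in jazDcdk8-1 than in Col-0: 179 ± 11.1 TPM in cdk8-1, 130 ± 3.65 TPM in jazD, 164 ± 7.82 TPM in jazDcdk8-1 and 158 ± 4.86 TPM in Col-0 (SD, n = 3). The part of such tissue in the sums was not tested.

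**Figure D1:**
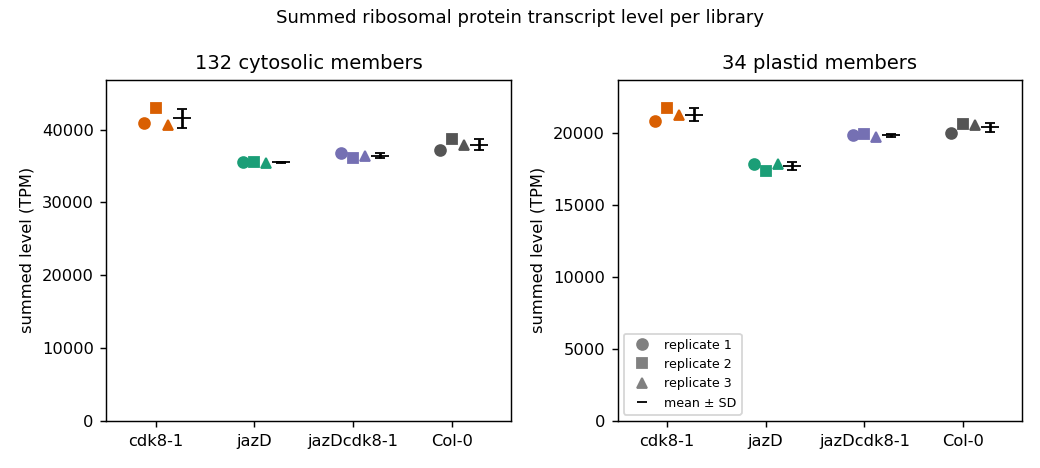
Summed level in TPM of the 132 cytosolic (left) and 34 plastid (right) members in each of the 12 libraries; point shapes are replicates and the bar beside them is mean ± SD. The cdk8-1 libraries are the highest in both panels, and the jazD libraries are the lowest.

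The balance between the 2 kinds of ribosome can be read within a library, without any scaling between libraries. The log2 ratio of the cytosolic to the plastid sum was 0.97, 0.98 and 0.93 in cdk8-1, 0.99, 1.03 and 0.99 in jazD, 0.89, 0.86 and 0.89 in jazDcdk8-1, and 0.89, 0.91 and 0.88 in Col-0. All cdk8-1 and all jazD libraries lay above all Col-0 libraries, and the jazDcdk8-1 libraries overlapped Col-0. The difference in this ratio was 0.07 for cdk8-1 against Col-0, 0.11 for jazD against Col-0, -0.13 for jazDcdk8-1 against jazD and -0.02 for jazDcdk8-1 against Col-0. Computed from summed counts in place of TPM, the same differences were 0.08, 0.10, -0.12 and -0.03. The balance of the cytosolic large over the small subunit differed less, with mean log2 ratios of 0.29 in cdk8-1, 0.32 in jazD, 0.29 in jazDcdk8-1 and 0.31 in Col-0.

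**Figure D2:**
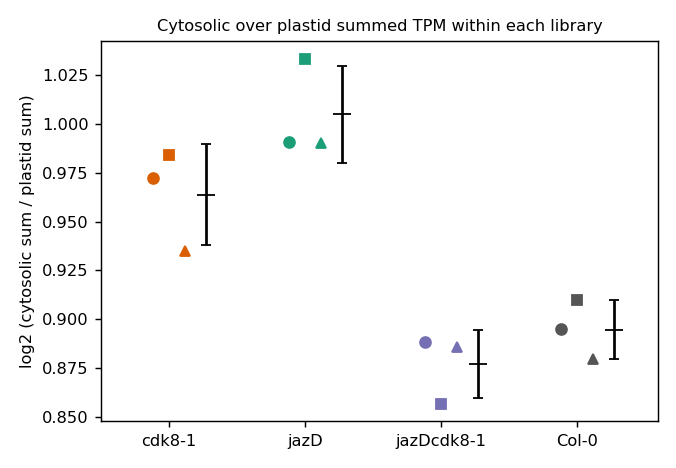
Log2 ratio of cytosolic to plastid summed TPM within each library, with mean ± SD beside the 3 replicates; the axis does not start at 0. The cdk8-1 and jazD libraries lie above 0.93, the jazDcdk8-1 and Col-0 libraries at or below 0.91.

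In jazD the plastid ribosomal protein genes were the members that moved most as a group. Of 34 plastid members 18 fell and 1 rose in jazD relative to Col-0, with a median log2 fold change of -0.13, while 16 of 132 cytosolic members fell and 7 rose, with a median of -0.02 (edgeR quasi-likelihood F-test, adjusted p below 0.05, TMM scaling, 3 against 3 libraries). Over all members 34 fell and 9 rose, where 20.9% of all genes tested fell and 21.8% rose. Of genes of 100 TPM or more 33.7% fell and 27.2% rose. Of all members 20.1% fell and 5.33% rose, and of plastid ones 52.9% and 2.94%. The median of all members was -0.04, against 0.00 for all genes tested and -0.03 for the 1376 genes of 100 TPM or more. With limma on log2(TPM + 1), where the median of all genes was -0.06, 85 members fell and 3 rose (background 26.0% and 15.9%), among them 31 and 1 of the plastid ones; with total counts 53 fell and 6 rose (background 23.7% and 19.0%), and scaled to 8 qPCR reference genes 61 fell and 3 rose (background 25.9% and 16.5%). Without jazD replicate 2 the fallen members numbered 22, and without Col-0 replicate 2 the risen ones numbered 5. For fits without a library, here and below, no shares of all genes are given, so such counts show only how member calls moved. No member changed beyond 2-fold in any comparison, and 1 changed beyond 1.5-fold in jazD.

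The plastid genes that fell belonged to both subunits. AT1G07320 (RPL4, a core 50S protein) had 391, 369 and 389 CPM in jazD, against 454, 494 and 473 CPM in Col-0. The groups did not overlap, and the log2 fold change was -0.31 ± 0.04 (SE; edgeR adjusted p = 7.16e-06). AT1G74970 (RPS9, of the 30S subunit) had 328, 289 and 321 CPM in jazD, against 373, 362 and 397 CPM in Col-0, again without overlap (-0.27 ± 0.05, edgeR adjusted p = 0.000302). PSRP5 (-0.25 ± 0.06), RPL12-A (-0.24 ± 0.05) and PRPL35 (-0.23 ± 0.05), all among the members with the highest levels, fell as well, while SSR16 was not called (-0.05 ± 0.06). RPL12-A overlaps an annotated gene on the opposite strand by 440 bases, and PSRP5 overlaps such genes by 73 and 179 bases. By subunit, 13 of 21 plastid large-subunit members fell and none rose. Of 13 members counted with the small subunit 5 fell and 1 rose, AT5G24490, which is described below. Leaf photosynthesis markers, other nuclear genes of plastid function, fell for 4 of 7 with none rising in the same comparison (median -0.21); their part in the plastid result was not tested.

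The exception among plastid members was AT5G24490, which rose in jazD, further than any other member in that comparison. It is annotated as a 30S ribosomal protein, with pS30Ae as its family label here. It was counted with the small subunit from its annotation, and its role in the ribosome was not tested. It had 246, 277 and 269 CPM in cdk8-1, 543, 559.6 and 566 CPM in jazD, 398, 403 and 399.6 CPM in jazDcdk8-1, and 346, 366 and 390.1 CPM in Col-0. No pair of the 4 genotypes overlapped: cdk8-1 was lowest, then Col-0, then jazDcdk8-1, and jazD was highest. The log2 fold change was -0.48 ± 0.05 in cdk8-1 against Col-0 (edgeR adjusted p = 2.32e-07), 0.60 ± 0.05 in jazD against Col-0 (edgeR adjusted p = 2.04e-09) and -0.47 ± 0.05 in jazDcdk8-1 against jazD (edgeR adjusted p = 9.83e-08). With limma on log2(TPM + 1) these were -0.39, 0.52 and -0.32, each still called. Between jazDcdk8-1 and Col-0 it was not called (0.12). The gene overlaps an opposite-strand neighbour, AT5G24500, by 159 bases, and whether counting used the strand is not given in the sources used here.

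Cytosolic members changed in jazD in both directions, but were called less often than genes in general. Of them 12.1% fell and 5.3% rose, where 20.9% and 21.8% of all genes tested did. For genes of 100 TPM or more these shares were 33.7% and 27.2%. Paralogs of 1 family sometimes parted. The lowest cytosolic member was AT5G47930 (S27 family, a zinc-binding protein of the small subunit), with 82.6, 89.6 and 85.0 CPM in jazD, against 120.3, 116 and 120.1 CPM in Col-0. The groups did not overlap (-0.47 ± 0.06, edgeR adjusted p = 8.3e-07). Its paralog AT3G61110 had 100.4, 95.2 and 95.5 CPM in jazD, against 90.7, 87.2 and 98.4 CPM in Col-0; these overlapped and it was not called (0.07).

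In the L31 family of the large subunit, AT5G56710 fell in jazD and AT2G19740 rose. AT5G56710 had 136, 135 and 136 CPM in jazD, against 166, 178 and 159.9 CPM in Col-0 (-0.31 ± 0.05, edgeR adjusted p = 9.52e-05). AT2G19740 had 49.4, 49.9 and 43.8 CPM in jazD, against 42.9, 42.3 and 40.7 CPM in Col-0 (0.19 ± 0.07, edgeR adjusted p = 0.0354). Neither pair of groups overlapped; the rise of AT2G19740 was not called with total counts (0.15) or with limma on log2(TPM + 1) (0.11). The coding sequences of this pair are 80.6% identical. In the S15A family of the small subunit, AT1G07770 (RPS15A) rose in jazD (0.21 ± 0.05) and AT5G59850 fell (-0.22 ± 0.05), at 85.2% identity of their coding sequences; AT5G59850 overlaps AT5G59860 on the opposite strand by 156 bases. These were the only 2 families with calls in opposite directions in jazD, and RSEM divides reads among such copies.

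AT5G47930 and AT5G56710 lie on chromosome 5 between 17 and 24 Mb, an interval in which earlier results of these data showed large falls in jazD. Of the 8 members there, 3 fell and none rose in jazD, with a median log2 fold change of -0.13. Of the 161 members elsewhere 31 fell and 9 rose, with a median of -0.03. Of all genes tested 20.9% fell and 21.8% rose. The interval was taken from these same data, so these counts are a description only. The part of the interval in these falls was not tested.

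Among members with a known mutant phenotype, the paralogs of RPL4 and RPL5, large-subunit proteins whose mutants have altered leaves, fell together in jazD: AT3G09630 (RPL4A, -0.19), AT5G02870 (RPL4D, -0.20), AT3G25520 (RPL5A, -0.18) and AT5G39740 (RPL5B, -0.16). AT1G33140 (RPL9C, PGY2) rose (0.12) under TMM but not with total counts (0.08). AT1G22780 (RPS18A, PFL), named for the pointed first leaves of its mutant, had 119.9, 107 and 105 CPM in jazD, against 107, 110.4 and 115 CPM in Col-0, and the groups overlapped.

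In cdk8-1 few members were called, and the count depended on scaling and on 1 library. Of 169 members 6 rose and 2 fell relative to Col-0, where 11.7% of all genes tested rose and 13.8% fell, with a median log2 fold change of 0.03 (edgeR quasi-likelihood F-test, adjusted p below 0.05). With total counts 54 rose and 1 fell (background 20.6% and 10.2%), and with limma on log2(TPM + 1) 74 rose and 1 fell (background 20.7% and 9.12%), but all genes then moved by a median of 0.07 and 0.08, and the members lay 0.03 and 0.04 above them, as with TMM (0.03). Scaled to the qPCR reference genes 1 rose and 4 fell (background 7.51% and 15.7%). The median log2 deviation of the members from their mean over libraries was 0.18 in cdk8-1 replicate 2, against 0.00 and 0.03 in the other two cdk8-1 libraries. Without that library the median change was -0.03, with 2 members called higher and 12 lower. How often all genes were called in that fit is not given here. The members called higher numbered 11 without cdk8-1 replicate 1, and 3 without cdk8-1 replicate 3 or without Col-0 replicate 2.

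The medians of cytosolic and plastid members in cdk8-1 were 0.04 and -0.04. Of the cytosolic members 5 rose (3.79%, under the 11.7% of all genes) and none fell, and of the plastid members 2 fell (5.88%, under the 13.8% of all genes) and none rose, so these counts show no excess of calls. Of 7 leaf photosynthesis markers 3 fell and 1 rose in the same comparison (median -0.11), and their part in the plastid median was not tested. The difference of these medians was 0.08 under TMM, total counts, qPCR reference genes and limma on log2(TPM + 1). The highest called members were AT3G61110 (S27 family, 0.22 ± 0.05), AT3G23390 (L36A family, 0.19 ± 0.07), AT1G48830 (S7 family, 0.15 ± 0.05), AT5G46430 (L32 family, 0.14 ± 0.05) and the elongation factor eEF2 (AT1G56070, 0.12 ± 0.04), which moves the ribosome along the mRNA. AT3G61110 had 101, 116 and 104 CPM in cdk8-1, against 90.7, 87.2 and 98.4 CPM in Col-0, without overlap (edgeR adjusted p = 0.00519). Besides AT5G24490, the plastid gene AT4G17560 (L19 family) fell (-0.13 ± 0.04), though not with total counts (-0.05).

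**Figure D3:**
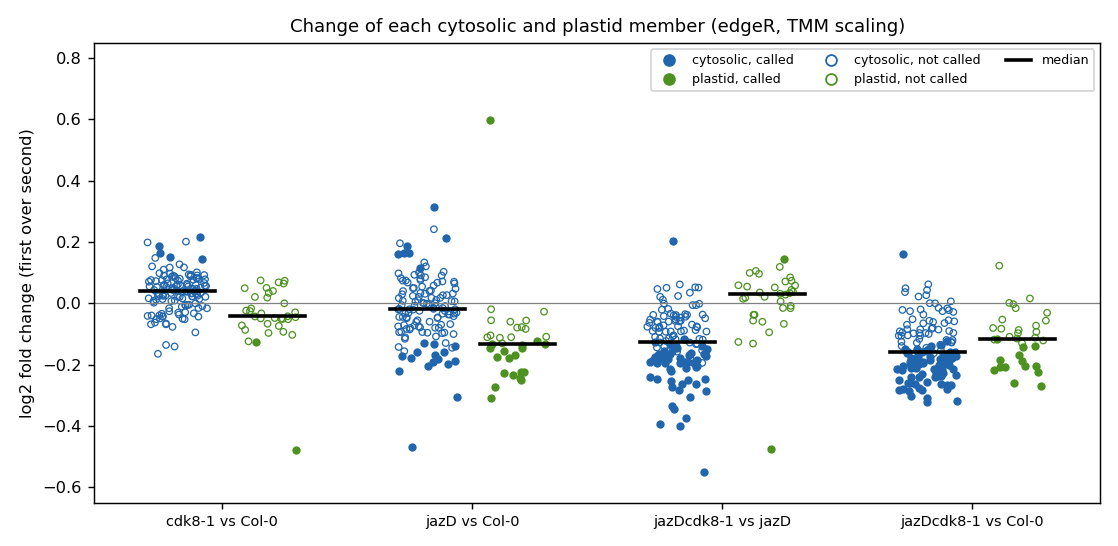
Log2 fold change of each of the 132 cytosolic and 34 plastid members in 4 comparisons (edgeR, TMM scaling); filled points were called at an adjusted p below 0.05 and black bars are medians. Plastid members lie lowest as a group in jazD against Col-0 (median -0.13), and cytosolic ones lie lower than plastid ones in jazDcdk8-1 against jazD (-0.13 and 0.03).

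When cdk8-1 was added to jazD, cytosolic and plastid members parted the other way. Of 132 cytosolic members 57 fell and 1 rose in jazDcdk8-1 relative to jazD, with a median log2 fold change of -0.13, while of 34 plastid members 1 fell and 1 rose, with a median of 0.03. Over all members 59 fell and 2 rose, where 19.0% of all genes tested fell and 16.9% rose (edgeR quasi-likelihood F-test, adjusted p below 0.05). Of genes of 100 TPM or more 32.6% fell and 20.1% rose. The fallen share was 34.9% of all members, near that of these genes, and 43.2% of cytosolic ones. By role, 34 of 68 cytosolic large-subunit, 19 of 58 small-subunit and 4 of 6 stalk genes fell. With paralogs summed, 34 of 68 cytosolic families fell and none rose, beside 19.0% and 16.9% of all genes tested. Without jazDcdk8-1 replicate 3 the fallen members numbered 30, and without jazD replicate 1 they numbered 37.

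The direction of this group shift depended on the scaling. With total counts 22 members fell and 21 rose (background 14.2% and 24.8%), and with limma on log2(TPM + 1) 8 fell and 55 rose (background 10.9% and 34.0%), and 29 of those that rose were plastid. On that last scale the median of all genes was itself 0.13, and the median of the cytosolic members (0.04) lay 0.09 below it and that of the plastid members (0.18) lay 0.06 above it. Under TMM the cytosolic median lay 0.13 below and the plastid median 0.03 above that of all genes. Scaled to the qPCR reference genes 40 fell and 2 rose (background 16.1% and 18.2%). The cytosolic median minus the plastid median was -0.16 under TMM, -0.16 with total counts, -0.16 with the qPCR reference genes and -0.15 with limma on log2(TPM + 1). The dividing-tissue markers went the other way from the cytosolic members under TMM, with 9 of 15 higher and 1 lower in jazDcdk8-1 than in jazD (median 0.23).

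Several cytosolic members fell on every one of these scales. AT1G56045 (L41 family, a very short protein of the large subunit) had 25.8, 23.2 and 21.1 CPM in jazDcdk8-1, against 32.5, 33.8 and 36.3 CPM in jazD (-0.55 ± 0.11, edgeR adjusted p = 0.00037). AT2G19740 (L31 family) had 40.3, 32.7 and 35.8 CPM in jazDcdk8-1, against 49.4, 49.9 and 43.8 CPM in jazD (-0.40 ± 0.07, edgeR adjusted p = 0.000124). AT1G04480 (L23 family, a large-subunit protein) had 60.3, 54.8 and 53.3 CPM in jazDcdk8-1, against 72.3, 72.1 and 73.4 CPM in jazD (-0.37 ± 0.06, edgeR adjusted p = 2.33e-05). None of these 3 overlapped between the genotypes, and with limma on log2(TPM + 1) they stood at -0.32, -0.22 and -0.20, each called. AT1G74270 (L35A family) fell by 0.39 ± 0.08 on the log2 scale. AT1G04480 holds 3 annotated snoRNA genes within its span, and the coding sequence of AT1G56045 is 92.3% identical to that of its paralog AT3G11120, so both levels are uncertain to that extent.

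Only 2 members rose in jazDcdk8-1 relative to jazD under TMM. AT5G47930 had 100.7, 98.2 and 97.2 CPM in jazDcdk8-1, against 82.6, 89.6 and 85.0 CPM in jazD (0.20 ± 0.06, edgeR adjusted p = 0.00853), with no overlap. It lies in the chromosome 5 interval named above. AT2G33800 (EMB3113, plastid S5, a gene named for its embryo-defective mutant) had 452, 477 and 478 CPM in jazDcdk8-1, against 434.9, 404 and 434 CPM in jazD (0.15 ± 0.05, edgeR adjusted p = 0.03).

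**Figure D4:**
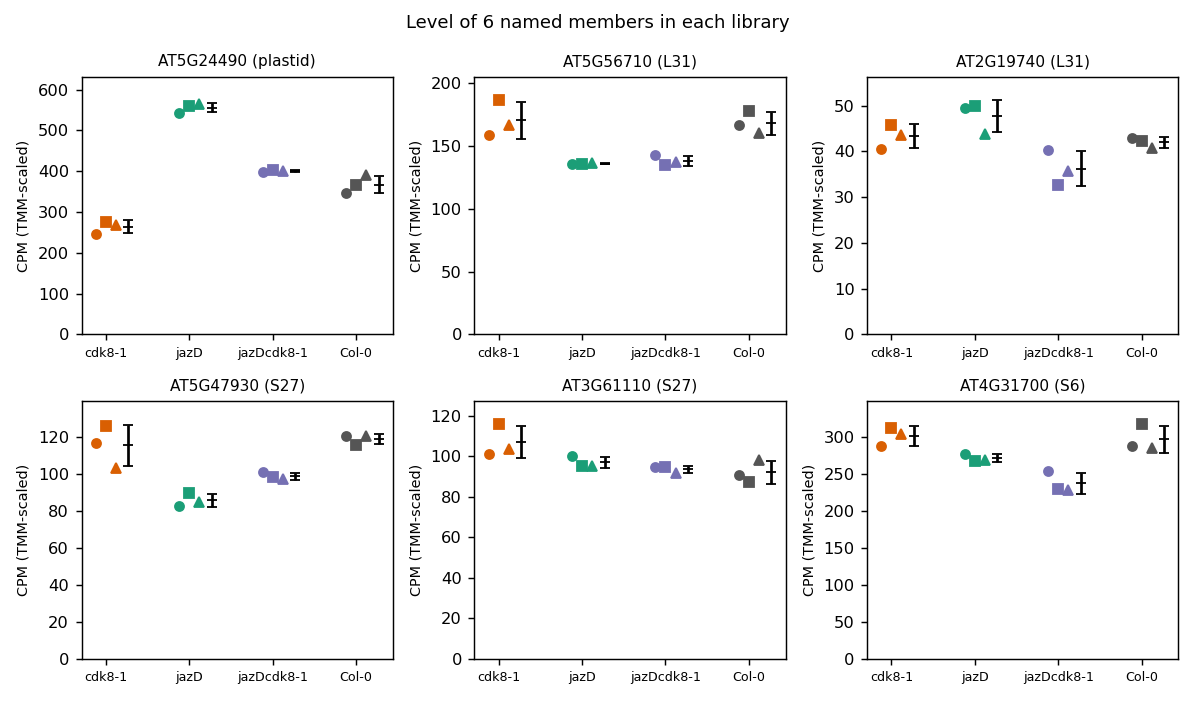
Level in CPM after TMM scaling of 6 named members in each library, with mean ± SD beside the 3 replicates. AT5G24490 is highest in jazD (543 to 566 CPM) and lowest in cdk8-1 (246 to 277 CPM), and AT5G47930 is lowest in jazD (82.6 to 89.6 CPM).

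Against Col-0, the members of jazDcdk8-1 lay lower in both compartments. Of 169 members 86 fell and 1 rose, where 16.1% of all genes tested fell and 16.3% rose, with a median log2 fold change of -0.15, against 0.01 for all genes tested and -0.06 for all genes of 100 TPM or more (edgeR quasi-likelihood F-test, adjusted p below 0.05). They comprised 72 of 132 cytosolic and 14 of 34 plastid members, with medians of -0.16 and -0.12. Of genes of 100 TPM or more 34.5% fell and 22.5% rose. Of cytosolic members 54.5% fell, and of plastid members 41.2%. Leaf photosynthesis markers fell for 5 of 7 with none rising (median -0.30), and their part in the plastid fall was not tested. With limma on log2(TPM + 1) 38 fell and 7 rose (background 11.0% and 22.1%), with total counts 61 fell and 2 rose (background 13.2% and 19.9%), and scaled to the qPCR reference genes 109 fell and none rose (background 17.7% and 12.1%). Of plastid members 26.5% fell with total counts, near the 29.0% of genes of 100 TPM or more. With limma on log2(TPM + 1) 23.5% of plastid and 22.7% of cytosolic members fell, near the 23.3% of those genes. With the qPCR reference genes 61.8% of plastid members and 38.8% of those genes fell. Of cytosolic members 39.4% fell with total counts and 65.9% with the qPCR reference genes. Under TMM, without jazDcdk8-1 replicate 3, 50 members fell. Under each of the scalings run, the median of the members lay below that of all genes, by 0.13 with limma on log2(TPM + 1) and by 0.16 with TMM, total counts and the qPCR reference genes.

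RPS6A (AT4G31700), whose protein is phosphorylated by the TOR-dependent S6 kinases, was the lowest member in this comparison. It had 254, 229.9 and 228 CPM in jazDcdk8-1, against 287, 317 and 285 CPM in Col-0, without overlap (-0.32 ± 0.05, edgeR adjusted p = 4.43e-05). Its paralog RPS6B (AT5G10360) had 316, 318 and 307 CPM in jazDcdk8-1, against 323, 325 and 317 CPM in Col-0 and was not called (-0.04); the pair is 84.7% identical in coding sequence. AT3G56340 (S26 family) had 122, 109.8 and 109 CPM in jazDcdk8-1, against 137, 135 and 152 CPM in Col-0 (-0.32 ± 0.06). AT1G04480 (-0.30 ± 0.06), AT2G19750 (S30 family, -0.29 ± 0.07) and AT5G56710 (-0.28 ± 0.05) followed. The 1 member that rose, AT4G09800 (RPS18C), had 136, 146 and 146 CPM in jazDcdk8-1, against 120.4, 132 and 130.5 CPM in Col-0 (0.16 ± 0.05, edgeR adjusted p = 0.0232). Its paralog PFL differed by 0.00 between these genotypes, and RPS18C also rose in jazD (0.17 ± 0.05) against the same Col-0 libraries. The S18 family had the widest range of any family here (0.31), more than these genes alone span. The identity of its coding sequences was not computed.

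Among the other phenotype genes, RPS13A (AT4G00100, PFL2) at -0.19, RPL4A at -0.21, RPL4D at -0.20, RPL5A at -0.22, RPL10aB (AT2G27530, PGY1) at -0.16, RPL3A (AT1G43170) at -0.15 and RPS5B (AT2G37270) at -0.28 fell in jazDcdk8-1 relative to Col-0. RPL24B (AT3G53020, STV1) at -0.12, RPL10A (AT1G14320, SAC52) at -0.10, RPL9C at -0.05 and RPS5A (AT3G11940) at -0.11 were not called. Of the cytosolic members that fell in this comparison 31 of 72 held a telo-box (43.1%) and 60 a site II element (83.3%), against 38 (63.3%) and 50 (83.3%) of the 60 that did not fall. This is a description of letters in the promoter window, with no test.

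**Figure D5:**
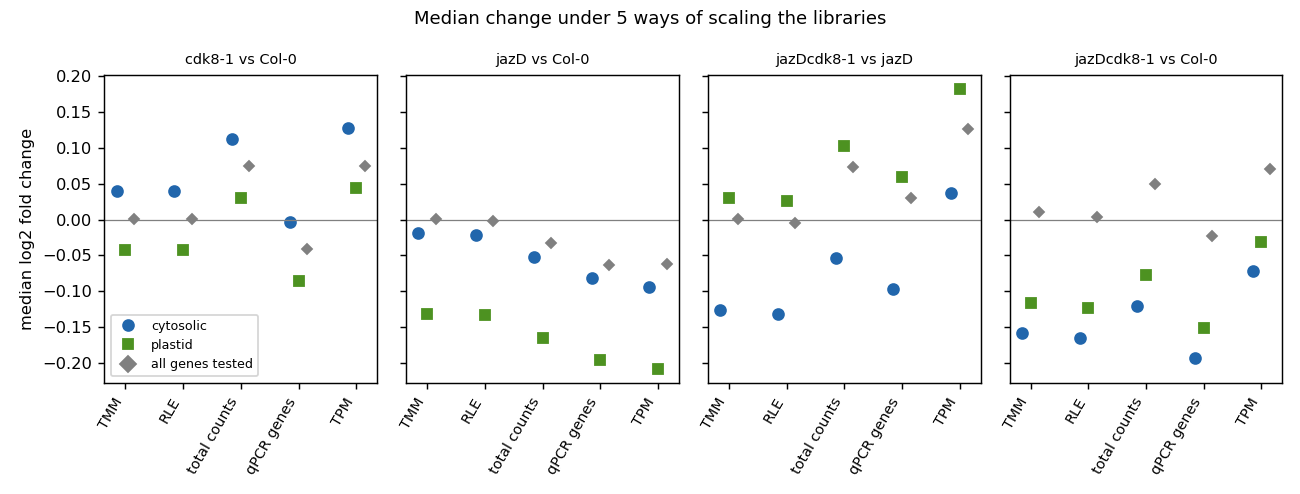
Median log2 fold change of cytosolic members (circles), plastid members (squares) and all genes tested (diamonds) in 4 comparisons under TMM, RLE, total counts, qPCR reference genes and TPM (limma on log2(TPM + 1)). The medians move up and down together, and the gap between circles and squares keeps its sign within each comparison.

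Under TMM, the effect of cdk8-1 on part of the cytosolic members differed between jazD and plants with intact JAZ genes. The interaction was jazDcdk8-1 minus jazD less cdk8-1 minus Col-0. It called 38 members lower and 1 higher, and all 39 were cytosolic (edgeR quasi-likelihood F-test, adjusted p below 0.05). Of all genes tested 8.39% were lower and 8.16% higher, and of genes of 100 TPM or more 18.2% and 17.7%. The lower share was 22.5% of all members, near that of these genes, and 28.8% of cytosolic ones. The median interaction was -0.16 for cytosolic and 0.02 for plastid members. With limma on log2(TPM + 1) 21 were lower and 10 higher (background 6.05% and 8.97%); of the 10, 9 were plastid, and the cytosolic median lay 0.14 below that of all genes. With total counts 49 were lower and 3 higher (background 8.22% and 7.64%). Scaled to the qPCR reference genes 8 were lower and 5 higher (background 5.30% and 10.7%). On that last scale 6.06% of cytosolic members were lower, under the 10.8% of genes of 100 TPM or more. Under TMM, without cdk8-1 replicate 2, the count was 22 lower and 6 higher. It was 20 lower without jazDcdk8-1 replicate 2 and also 20 without jazDcdk8-1 replicate 3. The stalk gene AT5G57290 (P3, a stalk protein particular to plants) had 128, 138 and 123 CPM in cdk8-1 and 118, 93.8 and 126 CPM in Col-0, and 106, 94.0 and 107 CPM in jazDcdk8-1 against 140.5, 124 and 122 CPM in jazD (interaction -0.54 ± 0.11, edgeR adjusted p = 0.00233). AT5G24490, by contrast, had an interaction of 0.00: the difference between cdk8-1 and Col-0 was the same size as that between jazDcdk8-1 and jazD.

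The ribosomal protein genes below 100 TPM, with 145 of 195 tested, had medians of 0.01 in cdk8-1, -0.02 in jazD and -0.10 in jazDcdk8-1 against Col-0, and -0.08 in jazDcdk8-1 against jazD. In cdk8-1 against Col-0 3.45% were called higher and 5.52% lower, where the shares of all genes tested were 11.7% and 13.8%. In jazD against Col-0 13.1% were higher and 15.2% lower, also under the shares of all genes (21.8% and 20.9%). In jazDcdk8-1 against Col-0 9 were higher and 29 lower (6.21% and 20%, all genes 16.3% and 16.1%). In jazDcdk8-1 against jazD 7.59% were higher and 18.6% lower, the second near the share of all genes (16.9% and 19.0%). The summed level of all 195 was 4443 ± 76.8 TPM in cdk8-1, 3947 ± 53.2 TPM in jazD, 4157 ± 46.0 TPM in jazDcdk8-1 and 4208 ± 94.3 TPM in Col-0 (SD, n = 3).

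Genes that build or run the ribosome were followed from other lists. The list of translation factors overlaps the members in eEF2 and in eEF1B. Of 28 ribosome assembly genes 13 fell and 4 rose in jazD, and 17 fell and 2 rose in jazDcdk8-1, both against Col-0, with medians of -0.16 and -0.24. The fallen share was 46.4% in jazD and 60.7% in jazDcdk8-1, where 20.9% and 16.1% of all genes tested fell. In jazDcdk8-1 against jazD 6 fell (21.4%, near the 19.0% of all genes) and 1 rose, and in cdk8-1 against Col-0 2 fell (7.14%, under the 13.8% of all genes). FIB2 (AT4G25630), a fibrillarin that methylates ribosomal RNA, stood at -0.71 ± 0.06 in jazDcdk8-1, -0.30 ± 0.06 in jazD and -0.17 ± 0.06 in cdk8-1 against Col-0. NOP58 (AT5G27120), its partner in the box C/D particle, stood at -0.57 ± 0.08 in jazDcdk8-1 and -0.47 ± 0.08 in jazD, both against Col-0. REIL2 (AT2G24500), a late 60S maturation factor, rose in jazD (0.45 ± 0.07 against Col-0) and was lower in jazDcdk8-1 than in jazD (-0.37 ± 0.07).

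Of 26 translation factors and ribosome-bound proteins 6 rose and 3 fell in cdk8-1, 4 rose and 7 fell in jazD and 1 rose and 6 fell in jazDcdk8-1, each against Col-0, and 1 rose and 5 fell in jazDcdk8-1 against jazD. The shares that rose and fell were 23.1% and 11.5% in cdk8-1 (all genes 11.7% and 13.8%), 15.4% and 26.9% in jazD (all genes 21.8% and 20.9%) and 3.85% and 23.1% in jazDcdk8-1 (all genes 16.3% and 16.1%), each against Col-0. In jazDcdk8-1 against jazD they were 3.85% and 19.2% (all genes 16.9% and 19.0%). The eEF1B gene AT5G12110 was lowest, at -0.84 ± 0.11 in cdk8-1, -1.19 ± 0.12 in jazD and -1.14 ± 0.11 in jazDcdk8-1 against Col-0. In the list of 10 TOR and SnRK1 kinase genes, S6K1 (AT3G08730), a kinase of the S6 protein, stood at 0.43 ± 0.05 in cdk8-1 and -0.50 ± 0.05 in jazD against Col-0 and at 0.51 ± 0.05 in jazDcdk8-1 against jazD, and S6K2 (AT3G08720) at 1.13 ± 0.13 in jazD against Col-0 and -0.70 ± 0.12 in jazDcdk8-1 against jazD. List calls, higher then lower, were 1 and 0 in cdk8-1, 2 and 2 in jazD, 3 and 1 in jazDcdk8-1, each against Col-0, and 3 and 1 in jazDcdk8-1 against jazD. Among the 5 genes for proteins that bind telo-boxes or site II elements, TRB1 (AT1G49950) rose in cdk8-1 (0.21 ± 0.07) and PURA (AT2G32080) in jazD (0.14 ± 0.05) and jazDcdk8-1 (0.20 ± 0.05), each against Col-0, and none was called in jazDcdk8-1 against jazD. Among the 8 genes used as qPCR references, calls higher and lower were 1 and 0 in cdk8-1, 3 and 1 in jazD and 1 and 0 in jazDcdk8-1 against Col-0, and 1 and 2 in jazDcdk8-1 against jazD. Over these 4 comparisons 11.7% to 21.8% of all genes tested were higher and 13.8% to 20.9% lower, and nothing is read from the counts of these short lists.

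Of the 169 members 47 were called in none of the 4 comparisons of genotypes under TMM, and 40 overlapped an annotated gene on the opposite strand.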

How the data were processed

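Gene expression was measured by RNA sequencing in 12 libraries, 3 per genotype. The deposited expected counts per gene were made by the authors with RSEM 1.2.25, per the file headers, without scaling between libraries; 3.42% of the values were not whole and were rounded here. The deposited TPM values come from the same RSEM step, per the file headers, and have the same sum in each library. The genome was TAIR10, per the submitters' processing notes; the aligner, read trimming, strandedness and gene model release are not given in the sources used here. Total counts ran from 17583467 to 21030374. No column of another series was in the tables.

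The 19059 genes left by filterByExpr were tested with edgeR 4.0.16 in R 4.3.3 (TMM scaling, 1 quasi-likelihood model of all libraries, Benjamini-Hochberg adjustment over all genes, called at an adjusted p below 0.05). SE is the absolute log2 fold change over the root of its F statistic. Simulated counts for jazD against Col-0 (18882 genes) gave back 78% of 1.2-fold and 100% of 1.5-fold changes. Alternatives were RLE and total-count scaling, TMM without the ribosomal protein genes or without the 20 most abundant genes, scaling to 8 qPCR reference genes, no filter, DESeq2 1.42.0, limma 3.58.1 on log2(TPM + 1) and log2(TPM + 0.1), a block for replicate number, each library left out, thresholds of 50 and 200 TPM, members outside 17 to 24 Mb of chromosome 5, and paralogs summed per family. The ratio of summed counts and its leave-one-out values were added after the data were seen.

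Named genes were the 5 highest members, the 3 on each side of the threshold, a list of members with known mutant phenotypes or as TOR targets, the called members with the highest and lowest changes without overlap between libraries, families called in opposite directions, and up to 3 called genes per pathway list; the text describes part of the genes this rule gives. The paralog AT3G11120 and the overlapping neighbours AT5G24500 and AT5G59860 are named beside members without being part of this rule. The members and lists were chosen with earlier results of these data known. Compartments and families were assigned by hand from the annotation, symbols and coordinates come from RefSeq TAIR10.1, and coding sequences were aligned with Biopython 1.88 (Python 3).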

Additional observations from a re-analysis of the deposited data

Results flagged for a closer look

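The effect of cdk8-1 differed between jazD and plants with intact JAZ genes for 39 members (38 lower and 1 higher), by the interaction term of the edgeR model at an adjusted p below 0.05. Of genes of 100 TPM or more 18.2% were lower and 17.7% higher, beside 22.5% and 0.592% of the members. The member called higher was AT5G47930 (S27 family) at 0.25 ± 0.08 on the log2 scale. The 3 lowest were AT1G56045 (L41 family) at -0.63 ± 0.15, AT5G57290 (P3 of the stalk) at -0.54 ± 0.11 and AT2G19740 (L31 family) at -0.45 ± 0.10. In AT1G56045 the Col-0 libraries ranged from 23.2 to 33.0 CPM, and in AT5G57290 from 93.8 to 126 CPM, with replicate 2 the lowest in both. In the S27 family the interaction of AT3G61110 was -0.27 ± 0.08, opposite to that of its paralog AT5G47930.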

How the results depend on the processing

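Counts of members called moved with the scaling, with the libraries included and with the test. RLE, TMM without the ribosomal protein or the 20 most abundant genes and DESeq2 changed little, with 1 exception. Each other count and median stayed within 1.5 times or 1 SD of its TMM value. The exception was the 1 member called higher in the interaction, where both of the reduced TMM settings gave 0 higher and 49 lower. With total counts the calls higher and lower were 54 and 1 in cdk8-1 against Col-0 (median 0.10), 6 and 53 in jazD against Col-0, 21 and 22 in jazDcdk8-1 against jazD (median -0.0199), 2 and 61 in jazDcdk8-1 against Col-0, and 3 and 49 in the interaction. Scaled to the qPCR reference genes they were 1 and 4, 3 and 61 (median -0.10), 2 and 40, 0 and 109, and 5 and 8 (median -0.0493). With limma on log2(TPM + 1) they were 74 and 1 (median 0.12), 3 and 85 (-0.11), 55 and 8 (0.0631), 7 and 38 (-0.0617), and 10 and 21 (-0.046), and with log2(TPM + 0.1) 74 and 1 (0.12), 3 and 85 (-0.11), 55 and 8 (0.0634), 7 and 37 (-0.0618), and 10 and 21 (-0.0461). The cause was not tested. Without the filter 1 member was lower in cdk8-1. At 50 and 200 TPM 6 and 1 were lower in cdk8-1, and at 50 TPM 2 were higher in the interaction. Outside 17 to 24 Mb of chromosome 5, 1 member was higher in jazDcdk8-1 than jazD. Paralogs summed, with fewer features, gave 2 and 1, 1 and 21, 1 and 36, 55 lower, and 23 lower in the same order.

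The summed level on the TMM-scaled CPM scale differed by 0.016 (cdk8-1), -0.06 (jazD) and -0.13 (jazDcdk8-1) against Col-0 and by -0.0688 in jazDcdk8-1 against jazD, where TPM gave 0.11, -0.13, -0.05 and 0.08. Without 1 library each, calls higher and lower ran 2 to 11 and 1 to 12 in cdk8-1 (median -0.0291 to 0.0661), 5 to 12 and 22 to 42 in jazD, 1 to 2 and 30 to 69 in jazDcdk8-1 against jazD, 0 to 2 and 50 to 100 in jazDcdk8-1 against Col-0, and 0 to 6 and 20 to 55 in the interaction. Shares of all genes are not given for these fits. Replicate numbers did not pair the samples (correlations of deviations -0.06 to 0.05); with a replicate block the calls were 4 and 2, 8 and 32, 2 and 55, 2 and 82, and 1 and 31. In jazDcdk8-1 against jazD, 33 of all 169 members had a positive change under TMM and 120 with limma on log2(TPM + 1). Among named members called under TMM or with limma, 6 turned direction with log2(TPM + 1) and log2(TPM + 0.1). They were AT3G27830 (0.14, 0.14), AT1G22780 (0.16, 0.16), AT3G09630 (0.13, 0.13), AT5G02870 (0.15, 0.15), AT2G27530 (0.0217, 0.0218) and AT5G10360 (0.0885, 0.0887). Of the other values for single genes 3020 kept their side of the threshold, 190 lost the call and 78 gained it. Changes of sign where neither fit made a call are counted among the 3020. With 3 libraries per group, 78% of 1.2-fold changes were called in counts simulated for jazD against Col-0; smaller ones, the size of most members' changes, were not simulated.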
